A study of Mus musculus with 2 samples.

Results

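Interferon-led monocytes and macrophages were the tumor cells described here, 140 of 13939 kept cell barcodes in a single-cell RNA sequencing experiment on CT26 tumors. They were chosen by measured values in each barcode, after barcodes with 20% or more mitochondrial RNA had been removed. Counts of unique molecular identifiers (UMIs, each marking 1 captured RNA molecule) were expressed per 10000 UMIs of the barcode (P10k). An interferon-led cell had a sum of *Rsad2*, *Cmpk2*, *Ifit1* and *Ifit2* of at least 10 P10k (the interferon sum), *Lyz2* of at least 20 P10k and at least 1 *Csf1r* UMI. It also had under 15 P10k of *C1qa*, *C1qb* and *C1qc* together, under 100 P10k of *S100a8* and *S100a9* together, and at most 1 UMI of *Cd3d*, *Cd3e* and *Cd3g*. The same criteria without the interferon sum are called the gate, and cells of the gate below 10 P10k are called interferon-low.

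CT26 cells, from a mouse colon carcinoma, were grown under the skin of BALB/c mice that the methods describe as male and that carried no engineered allele in the labels. One group was left untreated (UT) and the other received BUP-Gel, a hydrogel loaded with the local anesthetic bupivacaine (BUP), so a hydrogel without drug was not among the libraries. Tumors of 3 mice per group were digested and pooled, and live CD45+ and CD45- cells were sorted and mixed at 4 to 1 according to the labels, while the methods give another proportion. Each group was then 1 10X 5′ library, so that differences between mice of a group cannot be seen and no test between UT and BUP was possible.

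Depth was 83228442 UMIs over 7556 barcodes for UT and 89918925 UMIs over 7221 barcodes for BUP, of which 7163 and 6776 were kept. The libraries shared 76 barcode sequences, and 1 interferon-led cell had a barcode that also occurred in the other library. All intervals are at 95%, are exact (binomial for shares, Poisson for summed UMIs, conditional on the summed UMIs for ratios), and cover counting error only.

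Type I interferons bind a receptor that is present on almost all nucleated cells and signal through a complex with STAT2 and IRF9 that binds interferon-stimulated response elements in promoters. The genes switched on in this way encode antiviral effectors, sensors of viral nucleic acid, the regulator IRF7 that amplifies the response, and chemokines that attract T cells. In tumors, monocytes that enter from the blood and the macrophages that develop from them are among the cells that show such a program. The 4 genes of the rule belong to it. *Rsad2* (ENSMUSG00000020641) encodes viperin, a radical SAM enzyme that makes an antiviral nucleotide. *Cmpk2* (ENSMUSG00000020638), its neighbor on chromosome 12, encodes a mitochondrial nucleotide kinase. *Ifit1* (ENSMUSG00000034459) and *Ifit2* (ENSMUSG00000045932), on chromosome 19, encode RNA-binding proteins that restrict viral translation.

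Promoter sequences are shown first for 5 genes that carry the program, because they hold the letters that the interferon-activated factors are known to read. The 250 bases before the RefSeq transcription start are printed 5′ to 3′ on the strand of the gene, with each match to the response element core GAAANNGAAA, or to its reverse complement TTTCNNTTTC, in capitals. Sequences are from the RefSeq promoter table (build GRCm38.p6), and each was found once, unchanged, on its chromosome in GRCm39, which gives the coordinates. The windows were chr4:156285276-156285525 (minus strand) for *Isg15*, chr19:34618039-34618288 (plus) for *Ifit1*, chr19:34560679-34560928 (plus) for *Ifit3*, chr12:26506452-26506701 (minus) for *Rsad2* and chr5:92496749-92496998 (minus) for *Cxcl10*. In the GENCODE annotation *Isg15*, *Ifit1* and *Ifit3* begin slightly upstream of these starts, so the last bases of those windows lie in their first exon.
Isg15: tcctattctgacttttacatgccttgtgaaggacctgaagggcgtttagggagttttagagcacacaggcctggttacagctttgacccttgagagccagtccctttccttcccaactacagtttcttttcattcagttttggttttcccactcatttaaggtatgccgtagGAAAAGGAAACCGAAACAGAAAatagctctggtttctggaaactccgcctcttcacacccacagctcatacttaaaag
Ifit1: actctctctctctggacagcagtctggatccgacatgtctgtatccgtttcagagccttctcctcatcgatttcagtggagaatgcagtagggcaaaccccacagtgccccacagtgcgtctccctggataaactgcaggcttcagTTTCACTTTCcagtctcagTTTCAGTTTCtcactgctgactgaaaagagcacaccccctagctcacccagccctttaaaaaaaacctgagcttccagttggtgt
Ifit3: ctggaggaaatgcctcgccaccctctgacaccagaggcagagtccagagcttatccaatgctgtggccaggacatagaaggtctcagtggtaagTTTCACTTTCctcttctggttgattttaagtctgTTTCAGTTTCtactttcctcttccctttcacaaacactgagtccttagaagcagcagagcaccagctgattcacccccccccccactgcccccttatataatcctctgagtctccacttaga
Rsad2: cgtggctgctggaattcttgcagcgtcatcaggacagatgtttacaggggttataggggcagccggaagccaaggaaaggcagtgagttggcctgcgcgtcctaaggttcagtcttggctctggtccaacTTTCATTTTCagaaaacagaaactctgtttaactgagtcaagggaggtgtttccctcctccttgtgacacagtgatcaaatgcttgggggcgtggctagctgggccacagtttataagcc
Cxcl10: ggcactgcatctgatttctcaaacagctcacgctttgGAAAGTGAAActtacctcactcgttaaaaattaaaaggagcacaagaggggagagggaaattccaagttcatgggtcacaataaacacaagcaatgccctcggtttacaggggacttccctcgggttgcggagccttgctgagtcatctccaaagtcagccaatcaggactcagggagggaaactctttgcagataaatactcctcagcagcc

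The *Isg15* window held 3 overlapping matches, between -78 and -57 counted back from the start. *Ifit1* and *Ifit3* each held 2 matches, at -104 and -85 and at -156 and -122, all on the opposite strand. *Rsad2* held 1 match at -120, also on the opposite strand, and *Cxcl10* held 1 match at -213. The windows of *Cmpk2*, *Ifit2*, *Oasl1*, *Irf7*, *Cxcl9*, *Ly6c2* and *Acod1* held none, which says only that these letters were not within this distance of the listed starts. By GENCODE, the *Ly6c2* windows lie inside the gene, which starts at chr15:74988467. The *Ifit2* windows reach into or lie inside that gene. The lack of a match at *Ly6c2* and *Ifit2* therefore says little. No promoter entry was found for *Usp18*, *Mx1* and *Cxcl11*.

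The label was checked against markers. *Ly6c2*, which marks classical monocytes and took no part in the rule, was detected in 73 of 97 interferon-led UT cells and in 29 of 43 BUP cells. Its level per cell ran from 0 to 73.5 P10k in UT cells, with a median of 3.79, and from 0 to 31.0 P10k in BUP cells, with a median of 2.31. Summed over cells it stood at 680 UMIs per 1000000 (CPM) in UT and 478 CPM in BUP interferon-led cells, against 265 and 134 CPM in interferon-low cells and 56.6 and 49.4 CPM in C1q-high macrophages. C1q-high macrophages are barcodes that met the other criteria of the gate but had 15 P10k or more of C1q genes. *Ly6c2* is nearly identical to *Ly6c1*, so reads may be split between them, and *Ly6c1* stood at 886 and 814 CPM. Across interferon-led cells *Ly6c2* rose with the summed antiviral genes outside the rule (Spearman rho 0.50 in UT and 0.44 in BUP). Its excess was therefore not a check of monocyte identity apart from the interferon program. The wider list of 18 classical monocyte genes did not follow as a whole. The median of the smaller log2 ratio over interferon-low cells was 0.03, *Fn1* was lower (-0.76 and -0.49), and *Ccr2* lay on either side of 0 (-0.40 and 0.13).

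Defining genes of most other lineages were low. Summed over 8 T cell markers, interferon-led cells held 8.02 (UT) and 6.77 CPM (BUP), with *Trbc2*, *Cd8a* and *Cd4* at 0 in both libraries. The rule capped 3 of these markers, the *Cd3* genes, and the other 5 summed to 2.29 and 2.26 CPM, against 7.15 and 4.50 CPM in interferon-low cells. Dendritic cell markers, 10 in all, summed to 77.9 and 13.5 CPM with *Cd209a* at 0 in both, and most UMIs of *Clec9a*, *Flt3* and *Itgae* in UT came from 1 cell (87.5%, 92.3% and 90.9%). The 10 tumor and stromal markers summed to 53.8 and 54.1 CPM, with *Krt8* and *Krt18* at 0 in both libraries, and the 6 B and plasmacytoid markers to 18.3 and 2.26 CPM, with *Siglech* and *Klk1* at 0. The 7 neutrophil markers were higher, at 1624 (UT) and 1150 CPM (BUP), against 689 and 787 CPM in interferon-low cells, and their part in the results was not tested. The rule capped *S100a8* and *S100a9*, and the 5 other markers summed to 215 and 199 CPM, against 158 and 101 CPM in interferon-low cells. *Csf3r* and *Cxcr2*, receptors of neutrophils, stood at 105 and 29.8 CPM in UT and at 72.2 and 20.3 CPM in BUP, above 51.1 and 10.9 CPM and 34.7 and 6.62 CPM in interferon-low cells, whereas *Ly6g* was at 2.29 CPM in UT and at 0 in BUP. The 6 mast and erythroid markers summed to 263 (UT) and 2174 CPM (BUP), because 2 BUP cells carried hemoglobin RNA. The 6 NK markers summed to 16.0 and 158 CPM, and 1 BUP cell held 98.0% of the *Gzma* UMIs. Osteoclast markers summed to 126 and 42.9 CPM.

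Interferon-led cells made up 97 of 7163 kept UT barcodes (1.35%, 1.10 to 1.65) and 43 of 6776 kept BUP barcodes (0.635%, 0.460 to 0.854). The difference, BUP minus UT, was -0.720 percentage points (-1.06 to -0.384). The gate itself differed in size and held 22.5% of kept UT barcodes and 12.4% of kept BUP barcodes. Within the gate, interferon-led cells were 6.02% of 1611 UT cells (4.91 to 7.30) and 5.14% of 837 BUP cells (3.74 to 6.86), a difference of -0.884 percentage points with an interval of -2.77 to 1.16 that included 0. Lower and higher shares within the gate were thus both possible at this depth. Median depth was 7116 UMIs in the UT and 9663 UMIs in the BUP interferon-led cells, and 7870 and 8329 UMIs in interferon-low cells.

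The interferon sum formed a tail rather than a separate group. In the gate, 69.1% of UT and 73.2% of BUP cells had no UMI of the 4 genes. The lowest interferon-led cells had sums of 10.1 P10k in both libraries, and the nearest cells below the threshold had 9.86 P10k in UT and 9.20 in BUP. Between 8 and 10 P10k lay 18 UT and 2 BUP cells, and between 10 and 12 P10k lay 15 UT and 10 BUP cells. The median sum was 24.0 P10k in UT and 23.5 in BUP, and the highest was 217 and 161. All 4 genes were detected in 54 of 97 UT and 23 of 43 BUP cells, while 13 and 6 cells passed on 1 gene alone. Of the shallowest cells, 6 in UT and 3 in BUP passed with 3 or fewer UMIs of the 4 genes.

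**Figure D1:**
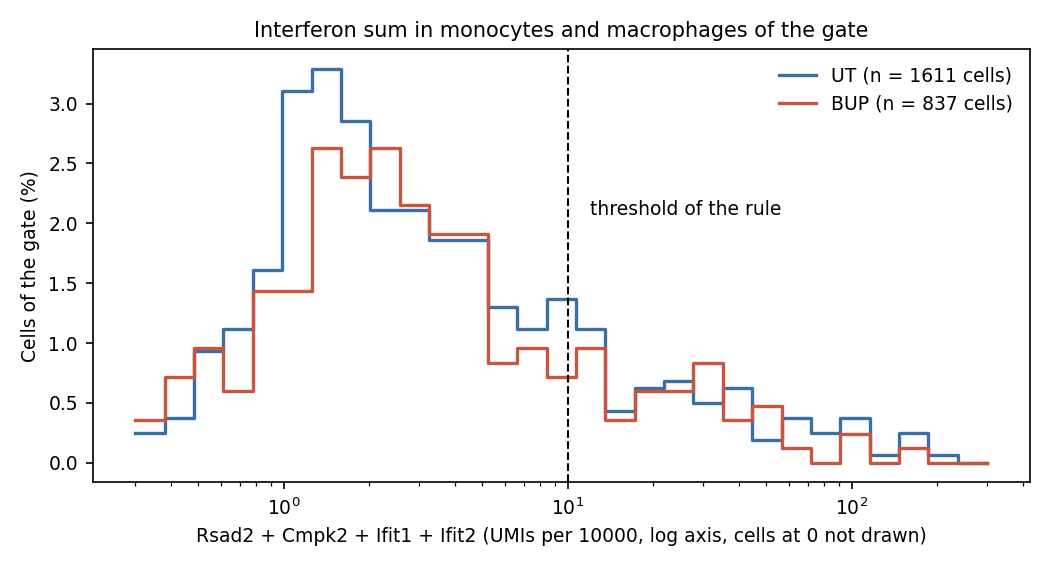
Share of gate cells (%, vertical axis) by interferon sum (UMIs per 10000, log axis) for the UT (n = 1611 cells) and BUP (n = 837 cells) libraries, with the threshold of 10 as a dashed line. Cells at 0 (69.1% and 73.2%) are not drawn. Neither histogram has a gap at the threshold, and the highest cells reach 217 and 161.

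An interferon sum of 10 P10k or more was not limited to the gate. It was reached by 4.25% of 1154 UT and 3.61% of 498 BUP C1q-high macrophages, by 2.40% of 542 and 1.12% of 800 T cells (barcodes with 3 or more *Cd3* UMIs, no *Csf1r* UMI and under 20 P10k of *Lyz2*), and by 19.0% of 668 and 11.1% of 577 neutrophil-type barcodes, which had 100 P10k or more of *S100a8* and *S100a9*. Kept barcodes outside the gate and these classes held the most, 209 of 3188 in UT (6.56%) and 126 of 4064 in BUP (3.10%). Their cell types were not told apart here. All kept barcodes past the threshold numbered 495 in UT and 260 in BUP. Interferon-led cells were 19.6% of all UT barcodes past the threshold (16.2 to 23.4) and 16.5% of those in BUP (12.2 to 21.6).

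In interferon-led cells, antiviral genes outside the rule stood far above their level in interferon-low cells of the same gate and library. The members were chosen on 4 correlated genes of the same cells, so these differences are a description with no test. Of 9120 genes with at least 50 UMIs over both classes in each library, 200 were at least 2-fold higher in both libraries (2.19%) and 193 at least 2-fold lower in both (2.12%). Genes of the rule were not left out of these counts, and its 4 interferon genes were high by selection. Across all genes the median log2 ratio was -0.14 in UT and -0.15 in BUP, so a ratio of 0 lies slightly above the middle. Of 42 other antiviral interferon response genes, 41 were measured, 39 were at least 2-fold higher in both libraries and none was lower, with a median of 2.06 for the smaller of both log2 ratios, against 0.00 over all genes (a gene whose ratios have opposite signs counts as 0). Scaled by the median ratio instead of total UMIs, 251 genes were higher and 131 lower. The 2 measured genes that missed the fold were *Ifitm3* (0.63 in UT and 0.78 in BUP) and *Ifi27l2a* (1.18 and 0.95). Both were already abundant in interferon-low cells, *Ifitm3* at 2775 and 2750 CPM.

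*Isg15*, a ubiquitin-like protein that is attached to other proteins, was the most abundant of the measured antiviral genes after *Ifitm3*. Its level per cell ran from 0 to 85.9 P10k in UT (median 15.5) and from 0 to 72.0 P10k in BUP (median 21.3), and it was detected in 90 of 97 and 42 of 43 cells. Summed, *Isg15* was at 2032 (UT) and 2109 CPM (BUP) interferon-led cells and at 217 CPM in interferon-low cells of both libraries, a log2 ratio of 3.23 (3.14 to 3.31) in UT and 3.28 (3.17 to 3.40) in BUP. C1q-high macrophages past the same interferon threshold had less, 1298 and 1514 CPM. The classes were not matched for the interferon sum. The 4 genes of the rule summed to 2753 and 2650 CPM in these macrophages, against 3863 and 3508 CPM in interferon-led cells. *Ifit3*, which binds IFIT1 and steadies it, showed a wider gap, with 331 and 305 CPM against 10.1 and 6.0 CPM. Its log2 ratio was 5.04 (4.74 to 5.34) in UT and 5.67 (5.18 to 6.17) in BUP. It was detected in 66 of 97 and 28 of 43 cells, at medians of 2.0 and 2.07 P10k and maxima of 15.4 and 12.5 P10k. After thinning of each cell to 2000 UMIs, *Ifit3* was present in 43.0% of interferon-led UT cells and 37.5% of those from BUP, against 2.32% and 1.03% of interferon-low cells and 3.08% and 1.30% of T cells.

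The 15 genes with the largest smaller ratio were, from the top, *Ifit1bl1*, *Ifit3*, *Mx1*, *Usp18*, *Ifi214*, *Mx2*, *Phf11a*, *Isg15*, *Ifi205*, *Isg20*, *Ddx60*, *Phf11b*, *Cxcl10*, *Oasl1* and *Ifi44*. *Ifit1bl1* is close in sequence to *Ifit1*, and the *Phf11* and *Ifi200* families hold near-identical copies, so single values in these families are uncertain. *Mx1*, a dynamin-like GTPase that traps viral nucleocapsids, was at 409 (UT) and 352 CPM (BUP) against 18.3 and 12.5 CPM, and log2 ratios were 4.48 (4.24 to 4.72) and 4.82 (4.44 to 5.19). *Usp18*, which removes ISG15 from its targets and dampens the interferon receptor, stood at 292 and 280 CPM against 18.9 and 14.1 CPM. *Oasl1*, a 2′-5′-oligoadenylate synthetase-like protein known to restrain *Irf7* translation, was at 634 and 670 CPM against 94.4 and 102 CPM.

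**Figure D2:**
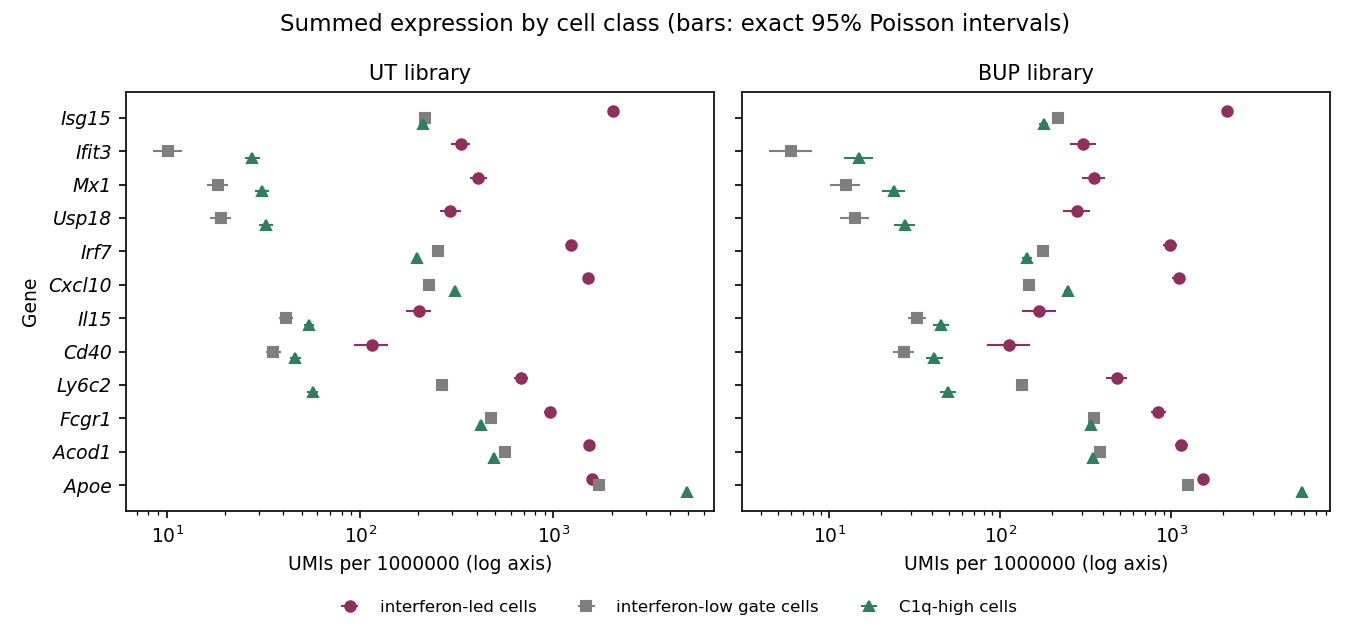
Summed expression (UMIs per 1000000, log axis) of 12 genes in interferon-led cells (circles), interferon-low gate cells (squares) and C1q-high cells (triangles), left UT and right BUP, with exact 95% Poisson intervals. The first 11 genes stood highest in interferon-led cells in both libraries, and *Apoe* stood highest in C1q-high cells at 4914 and 5829 CPM.

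Interferon transcripts themselves were nearly absent. No UMI of *Ifng*, of the listed alpha interferons or of *Ifnl2* and *Ifnl3* was found in interferon-led cells, in 873191 UMIs in UT and 443325 UMIs in BUP. *Ifng* stood at 251 (UT) and 241 CPM (BUP) T cells. *Ifnb1*, which encodes interferon beta, was found in 5 UT and 3 BUP interferon-led cells at 12.6 and 6.77 CPM, and 1 UT cell held 63.6% of its UT UMIs. Interferon-low cells held *Ifnb1* at 1.90 and 3.62 CPM.

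Among 20 receptors and signaling genes, all measured, 4 were at least 2-fold higher and none lower in interferon-led cells of both libraries, *Usp18*, *Irf7*, *Stat2* and *Socs1*. *Irf7*, the transcription factor that amplifies interferon production, ran from 0 to 56.9 P10k per UT cell (median 9.06) and from 0 to 42.7 P10k per BUP cell (median 7.5). Its sum was 1227 and 983 CPM against 253 and 178 CPM. *Stat2*, part of the factor that reads the response element, was at 221 and 144 CPM against 48.0 and 36.2 CPM, and *Socs1*, a brake on JAK kinases, at 253 and 160 CPM against 78.8 and 58.2 CPM. Receptor genes sat at like levels in both classes. *Ifnar1* and *Ifnar2* were at 129 and 231 CPM in UT interferon-led cells against 111 and 230 CPM, and *Ifngr1* was lower at 131 against 225 CPM.

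Nucleic acid sensors followed in part. Of 17 genes listed, 13 were measured, and 6 were at least 2-fold higher, *Rigi*, *Ifih1*, *Dhx58*, *Zbp1*, *Adar* and *Cgas*. *Rigi*, which detects viral RNA ends, was at 172 and 194 CPM against 29.4 and 28.7 CPM, with log2 ratios of 2.55 (2.27 to 2.82) and 2.76 (2.38 to 3.12). *Ifih1*, which encodes the long-RNA sensor MDA5, was at 379 and 476 CPM against 74.5 and 86.5 CPM. *Sting1*, *Mavs*, *Tlr4* and *Tlr7* did not reach the fold. Among 18 cell death genes, 17 measured, 4 were at least 2-fold higher in both libraries. They were *Daxx* (2.39 and 2.84), *Xaf1* (2.0 and 2.32), *Zbp1* (1.24 and 1.62) and *Mlkl*, the executioner of necroptosis (1.05 and 1.91). *Tnfsf10*, which encodes the death ligand TRAIL, had too few UMIs for the count and stood at 50.4 and 47.4 CPM against 3.07 and 1.37 CPM.

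Of the 3 ligands of the T cell receptor CXCR3, *Cxcl10* was the most abundant. It was detected in 62 of 97 UT and 33 of 43 BUP cells and ran from 0 to 103 P10k (median 2.71) and from 0 to 53.3 P10k (median 4.10). Its sum was 1505 (UT) and 1105 CPM (BUP), against 228 and 147 CPM in interferon-low cells, log2 ratios of 2.72 (2.63 to 2.82) and 2.91 (2.75 to 3.06). *Cxcl11* was at 238 and 381 CPM against 92.0 and 42.0 CPM, but in BUP 1 cell held 47.3% and 5 cells 86.4% of its UMIs. *Cxcl9*, a ligand known for its answer to interferon gamma, did not rank with them. It was found in 20 of 97 and 13 of 43 cells at 223 and 51.9 CPM, against 147 and 83.8 CPM in interferon-low cells and 319 and 236 CPM in C1q-high macrophages. *Cxcl9* was thus higher in UT interferon-led cells (0.60) and lower in BUP ones (-0.69) than in interferon-low cells. Summed, the 3 ligands stood at 1966 (UT) and 1538 CPM (BUP) in interferon-led cells. C1q-high macrophages past the interferon threshold held 1800 and 2059 CPM.

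Of 16 interferon-gamma-inducible GTPases, which attack vacuoles of intracellular microbes, 14 were measured, 10 were at least 2-fold higher in both libraries and none was lower (median 1.23). Summed, the 16 stood at 3110 (UT) and 3237 CPM (BUP) in interferon-led cells. C1q-high macrophages past the interferon threshold held 3077 and 2310 CPM, so the UT level was not particular to interferon-led cells. *Gbp5* was at 224 and 307 CPM against 65.8 and 46.6 CPM, *Irgm1* at 263 and 221 CPM against 75.7 and 49.1 CPM, and *Gbp2* at 700 and 688 CPM against 300 and 182 CPM. MHC class I genes were raised less. Of 21, all measured, only *H2-T22* passed the fold in both libraries (1.56 and 1.53), and the median was 0.33. *B2m*, the invariant chain, was at 3084 and 2350 CPM against 2222 and 1876 CPM. None of 10 measured class II genes passed the fold, and *Cd74*, the invariant chain of class II, was at 5329 and 4931 CPM against 5279 and 4591 CPM.

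Among 19 checkpoint and costimulatory genes, 17 measured, 5 were at least 2-fold higher in both libraries, *Il15*, *Il15ra*, *Cd40*, *Lgals9* and *Il18bp*. *Il15*, a cytokine that sustains CD8 T and NK cells, was at 200 and 169 CPM against 41.1 and 32.6 CPM, log2 ratios of 2.29 (2.03 to 2.53) and 2.38 (1.98 to 2.75). *Il15ra*, the chain that presents IL-15, was at 61.8 and 40.6 CPM against 14.3 and 12 CPM. *Cd40*, the receptor through which T cells license antigen-presenting cells, was at 115 and 113 CPM against 35.5 and 27.2 CPM. *Cd274*, which encodes PD-L1, was higher by less than 2-fold (0.68 and 0.65), at 667 and 562 CPM, and *Cd80* lay on either side of 0 (0.05 and -0.25).

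Lineage genes differed less than interferon genes. Of 18 classical monocyte genes, all measured, 3 were at least 2-fold higher in both libraries, *Ly6c2* (1.36 and 1.84), *Ly6c1* (1.14 and 1.63) and *Ms4a4c* (1.90 and 2.11), and *Ms4a4c* is itself in the antiviral list. *Plac8* (0.83 and 1.29) passed the fold in BUP and not in UT, while *Ccr2*, the receptor that draws monocytes into tissue, did not (-0.40 and 0.13). *Fn1*, which encodes fibronectin, was lower (-0.76 and -0.49). No patrolling monocyte gene of 9 measured and no mature macrophage gene of 18 measured passed the fold in both libraries in 1 direction. In UT alone 3 patrolling genes were at least 2-fold lower, and in BUP alone 1 patrolling gene was lower, 1 mature macrophage gene higher and 2 lower. *Spp1*, which encodes osteopontin, was among the lower of them (-0.50 and -1.0). Of 11 myeloid identity genes not used by the rule, *Fcgr1*, the high-affinity Fc receptor CD64, was the one that passed (1.01 and 1.25), at 959 and 839 CPM against 476 and 352 CPM. *Lyz2*, which the rule used, was lower (-0.51 and -0.41).

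Of 18 measured inflammatory macrophage genes, *Acod1* and no other with more than 100 CPM passed the fold in both libraries. *Acod1* makes itaconate, a metabolite that restrains inflammation, and stood at 1525 and 1146 CPM against 560 and 384 CPM (1.45 and 1.58). The other was *Il6* (1.16 and 2.62), of which 1 BUP cell held 87.5% of the UMIs. *Il1b* (-0.22 and -0.06), *Cxcl3* (-0.10 and 0.04) and *Inhba* (-0.42 and -0.01) lay near their level in interferon-low cells. A sum of *Inhba*, *Cxcl3* and *Thbs1* of 20 P10k or more was found in 32 of 97 UT and 15 of 43 BUP interferon-led cells (33.0% and 34.9%). Among interferon-low cells it was found at a like rate, in 461 of 1514 UT and 295 of 794 BUP cells. A sum of *Adgre4* and *Ace* of 5 P10k or more, which marked patrolling-type cells, was found in 0 of 97 and 0 of 43, which allows up to 3.73% and 8.22%. It was found in 74 of 1514 UT and 30 of 794 BUP interferon-low cells.

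Genes lower in interferon-led cells were of another kind and depended on the processing, since 83 of the 193 remained without the barcodes of highest doublet score and 1 after thinning to 2000 UMIs, where 2881 genes could be measured. *Gzmf* changed its sign in the thinned counts, in which interferon-led cells were chosen anew. The 15 with the largest smaller ratio included *Gzmf* and *Gzmd*, granzymes of cytotoxic lymphocytes, at 22.9 and 9.16 CPM in UT interferon-led cells against 223 and 155 CPM in interferon-low cells. T cells held *Gzmf* at 4029 (UT) and 2391 CPM (BUP). The list went on with *Cxcl14*, *Hspd1*, *Ppp1r14b*, *Pa2g4*, *Eef1g*, *Snu13*, *Emc6*, *1110038B12Rik*, *Scd2*, *Banf1*, *Cct4*, *Ybx3* and *Phb2*. *Hspd1*, a mitochondrial chaperone, was at 49.2 and 60.9 CPM against 117 and 130 CPM, and *Eef1g*, a translation elongation factor, at 109 and 120 CPM against 199 and 208 CPM. Of 10 cell cycle genes, 8 were measured, all 8 lay below 0 and 1 (*Rrm2*) passed the fold, at -1.79 (-3.68 to -0.41) and -1.73 (-7.06 to 0.80).

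The response element core was common in promoters of the genes that were higher in interferon-led cells. Among all 32851 windows of the same length in the RefSeq table (250 bases before to 50 after a start), 3.44% held GAAANNGAAA on either strand, and 3.39% of the windows of the measured genes did. Of the 200 higher genes, 163 were matched by symbol, with 207 windows, and 51 of these windows held it (24.6%). Of 193 lower genes, 145 were matched, and 5 of 170 windows held it (2.94%). Windows of the other antiviral genes held it in 22 of 39 cases (56.4%, 32 genes matched), and those of the interferon-gamma GTPases in 10 of 12 cases (83.3%, 11 genes matched). None of 17 windows of classical monocyte genes and 1 of 20 of inflammatory macrophage genes held it. The 17 included the *Ly6c2* windows that lie inside the gene. The gamma-activated site TTCNNNGAA, its own reverse complement, was in 8.30% of all windows, 11.1% of those of higher genes and 6 of 12 of the GTPases. Matches of both motifs may overlap in a window. The higher genes were chosen by the same cells, and neighboring family members share promoter sequence, so windows are not independent. Genes of the rule were not left out of the higher genes. Windows of its 4 interferon genes held the core in 2 of 5 cases.

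**Figure D3:**
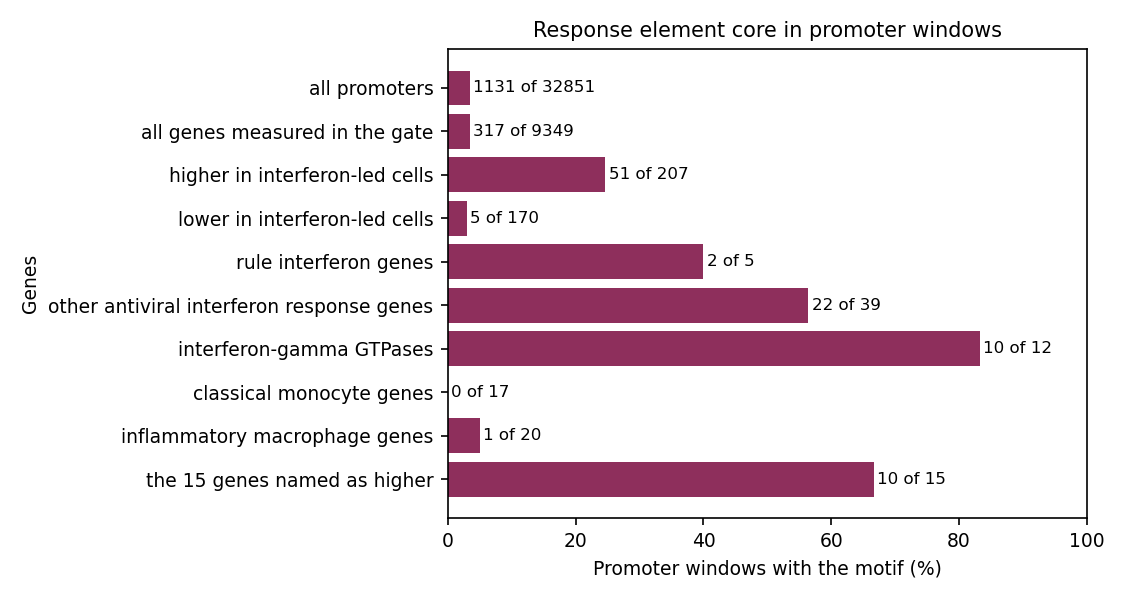
Percent of promoter windows (300 bases) with the response element core, for gene groups on the vertical axis, with counts beside each bar. The share was 3.44% over all windows, 24.6% for genes higher in interferon-led cells, 2.94% for genes lower in them and 83.3% for the interferon-gamma GTPases.

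Interferon-led cells varied widely among themselves. Summed over the 42 other antiviral genes, cells ran from 21.3 to 556 P10k in UT (median 198) and from 32.2 to 444 P10k in BUP (median 188), with medians of 32 and 34 of the 42 genes detected. Interferon-low cells had medians of 56.2 and 50.7 P10k and reached 361 and 272, so the distributions overlapped. C1q-high macrophages past the interferon threshold lay between, with medians of 130 and 126 P10k in 49 and 18 cells. Across cells, the interferon sum and the other antiviral sum had a Spearman rho of 0.60 in 97 UT and 0.42 in 43 BUP cells, and cells of 1 library share depth and free RNA. The interferon sum and total UMIs had a rho of -0.01 in UT and 0.32 in BUP. *Ly6c2* and the other antiviral sum had a rho of 0.50 and 0.44, whereas *Arg1* (-0.23 and -0.04) and *Il1b* (-0.27 and -0.08) did not rise with it.

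Ranked by interferon sum and divided within each library into 3 groups of like size, cells differed in some programs and not in others. The other antiviral genes summed to 13714, 16725 and 29093 CPM from the lowest to the highest group in UT, and to 14735, 19305 and 22370 CPM in BUP. The CXCR3 ligands were concentrated in the highest group, at 717, 1249 and 4419 CPM in UT and at 748, 724 and 2778 CPM in BUP. *Cxcl10* made up most of this, with 3715 CPM in the highest UT group and 1871 CPM in the highest BUP group. Interferon-gamma GTPases reached 2005, 2790 and 4847 CPM in UT and 2413, 3097 and 3984 CPM in BUP. Class II genes had no common order, at 12983, 16434 and 11220 CPM in UT and at 9074, 12679 and 14317 CPM in BUP. Inflammatory macrophage genes were highest in the lowest group of both libraries, at 25788 (UT) and 31854 CPM (BUP). Each group held 32 or 33 UT cells and 14 or 15 BUP cells.

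**Figure D4:**
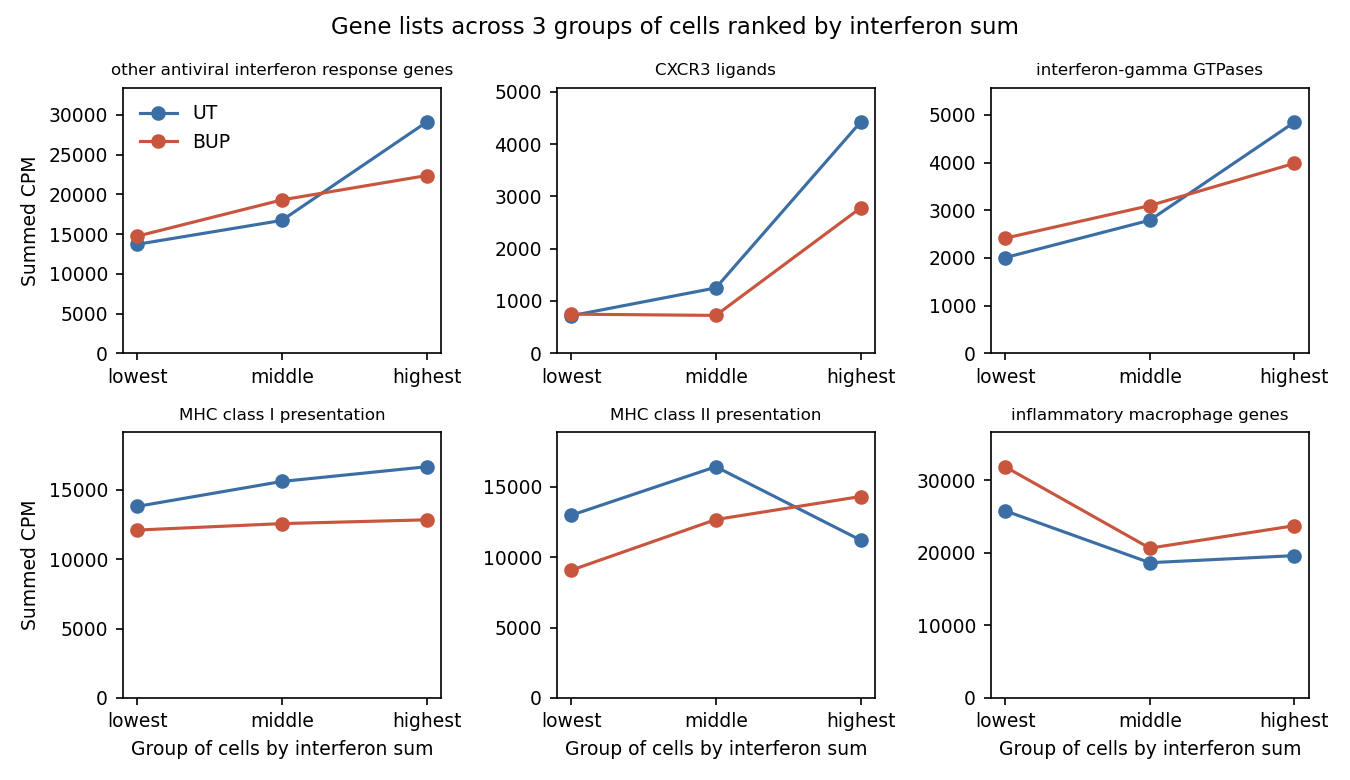
Summed expression of 6 gene lists (CPM, axes from 0) in the lowest, middle and highest group of interferon-led cells by interferon sum, for UT and BUP. The other antiviral genes rise from 13714 to 29093 CPM in UT and from 14735 to 22370 CPM in BUP, while class II genes have no common order.

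Cells with and without a *Ly6c2* UMI were both interferon-led. The 73 UT and 29 BUP cells with one had interferon sums with medians of 27.9 and 25.9 P10k, and the 24 and 14 cells without had medians of 17.7 and 19.7 P10k. Cells without were shallower, with medians of 6792 against 7912 UMIs in UT and 7175 against 10230 UMIs in BUP, and the part of depth in this split was not tested. Class II genes summed to 9726 CPM with and 20081 CPM without *Ly6c2* in BUP, and to 13500 and 15285 CPM in UT. The macrophage polarization genes *Nos2*, which makes nitric oxide, and *Arg1*, which consumes arginine, were found together in some cells. After thinning to 2000 UMIs, 7 of 93 UT cells had both, 4 had *Nos2* alone and 26 *Arg1* alone. In BUP, 2 of 40 cells had both, 2 *Nos2* alone and 12 *Arg1* alone.

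Between UT and BUP, the antiviral program of interferon-led cells was much the same in level. Cells of both libraries had passed the same threshold on 4 correlated antiviral genes, so like levels were in part set by the rule. Of 3804 genes with 50 or more UMIs in interferon-led cells of both libraries together, 194 were at least 1.5-fold higher (5.1%) and 286 at least 1.5-fold lower (7.52%) in BUP, with a median log2 ratio of -0.02. In counts simulated with counting error alone, 6.38% of unchanged genes passed 1.5-fold in either direction. Many of the genes past the fold may therefore reflect counting error, and variation between cells was not simulated. Of 42 other antiviral genes, all measured, 0 were higher and 2 were lower by that fold, with a median of -0.07. The 2 lower ones were *Phf11d*, at 191 (UT) and 90.2 CPM (BUP) (-1.08, -1.62 to -0.58), and *Ddx60*, at 165 and 97.0 CPM (-0.77, -1.29 to -0.27). *Isg15* differed by 0.05 (-0.06 to 0.17), *Ifit3* by -0.12 (-0.43 to 0.18), *Mx1* by -0.22 (-0.50 to 0.06) and *Usp18* by -0.06 (-0.38 to 0.25), and these intervals included 0. In interferon-low cells the same list had 40 genes measured, 0 higher and 6 lower, with a median of -0.40.

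A few signaling and presentation genes were lower in BUP in interferon-led cells. Of 19 measured receptor and signaling genes 3 were at least 1.5-fold lower in BUP, *Stat2* (-0.61, -1.05 to -0.20), *Irf8* (-0.66, -1.0 to -0.33) and *Socs1* (-0.66, -1.07 to -0.27), and none was higher, a share of 15.8% against 7.52% of all genes. *Irf7* was lower by less (-0.32, -0.48 to -0.16). Of these 19 genes 13 lay below 0, with a median of -0.13. The list lay lower in interferon-low cells too, with 18 of 20 genes below 0, a median of -0.20 and 0 past the fold. *Irf8* is a lineage factor of monocytes and dendritic cells, and 1 UT cell held 22.5% of its UT UMIs. Of 20 measured class I genes 15 lay below 0, as did 2008 of all 3804 genes, with a median of -0.27, and *H2-T22* and *Pdia3*, a chaperone of peptide loading (-0.67), passed the fold. The share of class I genes past the fold, 2 of 20, was near the 7.52% of all genes. *B2m* differed by -0.39 (-0.50 to -0.29), *H2-K1* by -0.40 (-0.53 to -0.28) and *H2-T22* by -0.61 (-1.07 to -0.16). *Cd274* differed by -0.25 (-0.47 to -0.03). In interferon-low cells *B2m* differed by -0.24 and *Cd274* by -0.22.

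The CXCR3 ligands moved apart. *Cxcl9* fell from 223 CPM in UT to 51.9 CPM in BUP (-2.11, -2.80 to -1.48), although it was detected in 20.6% of UT and 30.2% of BUP cells, and 5 UT cells held 71.3% of its UMIs. *Cxcl10* differed by -0.45 (-0.60 to -0.29). *Cxcl11* was higher in BUP (0.68, 0.38 to 0.98), and without the cell richest in it in each library the ratio was 0.04. *Gbp5* (0.45, 0.12 to 0.77) and *Gbp3* (0.64, 0.22 to 1.06) were higher in BUP, whereas *Igtp* was lower (-0.54, -1.02 to -0.08).

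**Figure D5:**
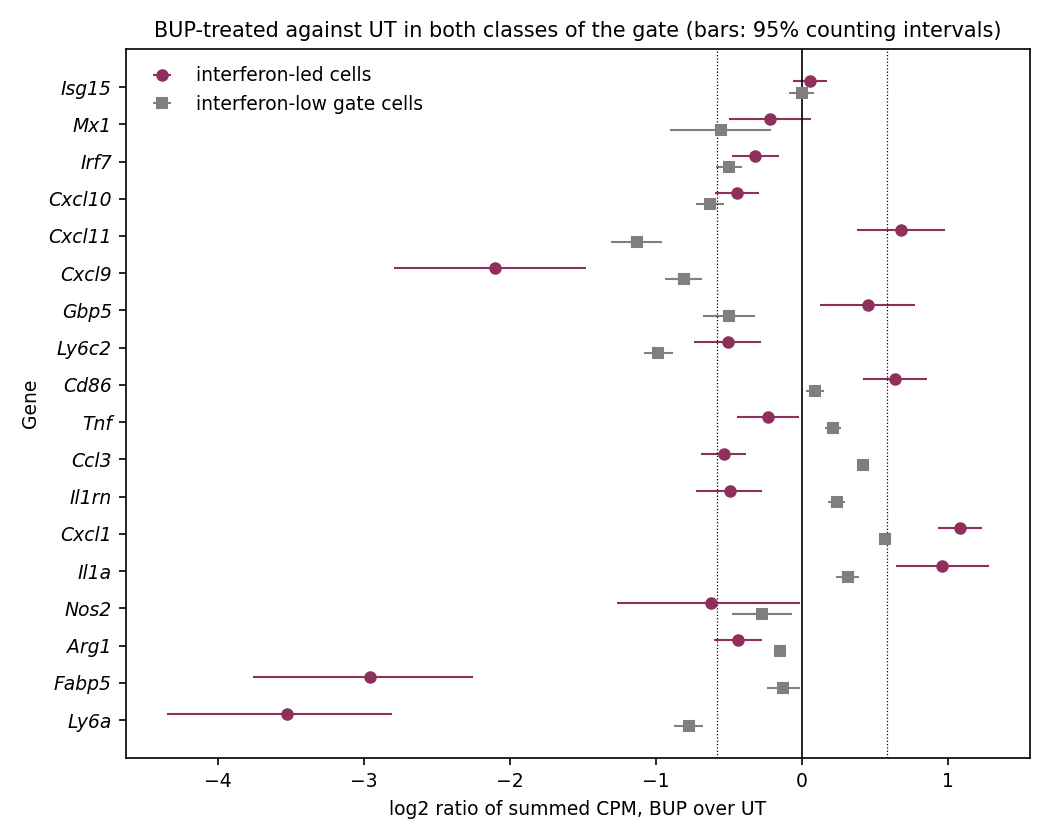
log2 ratio of summed CPM, BUP over UT, for 18 genes in interferon-led cells (circles) and interferon-low gate cells (squares), with 95% counting intervals and dotted lines at a 1.5-fold change. *Isg15* sits at 0.05 and -0.00, *Cxcl9* at -2.11 and -0.81, *Cd86* at 0.64 and 0.09, and *Ly6a* at -3.53 and -0.78.

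Among genes with at least 200 UMIs in interferon-led cells and 100 CPM in 1 library, the 3 highest in BUP were *Hba-a1* (3.47), *Hba-a2* (3.28) and *Hbb-bs* (2.77), globin genes of red blood cells. Their BUP UMIs all came from 2 cells, and without the 5 cells of both libraries that held 20 or more hemoglobin or *Gzma* UMIs *Hbb-bs* stood at -0.08. *Hba-a1* and *Hba-a2* are near-identical copies. Next came *Cxcl1*, a neutrophil chemokine, at 831 and 1762 CPM (1.08, 0.94 to 1.23), and *Il1a* at 191 and 372 CPM (0.96, 0.64 to 1.28). *Cxcl1* ran from 0 to 235 P10k per UT cell and from 0 to 112 P10k per BUP cell, with medians of 1.14 and 1.45, so the distributions overlapped. *Nr4a1*, an immediate early nuclear receptor, was detected in 44 of 97 UT and 35 of 43 BUP cells, at 196 and 368 CPM (0.91, 0.59 to 1.23). *Peli1*, a ubiquitin ligase of innate signaling, was at 147 and 266 CPM (0.86, 0.49 to 1.23), *Fn1* at 930 and 1647 CPM, *Cox7a2* at 184 and 318 CPM, and *Tiparp* at 266 and 449 CPM. In interferon-low cells *Nr4a1* differed by 0.08 and *Peli1* by 0.05.

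The lowest in BUP was *Ly6a* (ENSMUSG00000075602), which encodes the interferon-inducible surface protein Sca-1, at 416 (UT) and 36.1 CPM (BUP) (-3.53, -4.35 to -2.81). It was detected in 30 of 97 and 10 of 43 cells, at up to 96.4 and 6.10 P10k with medians of 0, and 5 UT cells held 58.4% of its UT UMIs. *Ly6a* was lower in BUP in interferon-low cells too (-0.78), and in C1q-high macrophages at 464 and 200 CPM. *Fabp5*, a fatty acid-binding protein, was at 299 and 38.3 CPM (-2.96, -3.76 to -2.26), detected in 25 and 4 cells. *G0s2*, an inhibitor of lipolysis, was at 263 and 67.7 CPM (-1.96), and *Klf2*, a transcription factor that restrains myeloid activation, at 746 and 293 CPM (-1.35). *Def8* (-1.27) rested on 1 UT cell with 45.1% of its UT UMIs. *Hcar2* (-1.01), *Mmp12* (-0.99) and *Hmox1* (-0.96), which encodes heme oxygenase 1, closed the list. In counts thinned to 2000 UMIs, with interferon-led cells chosen anew, *Hcar2* stood at 0.073.

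For the genes the study used to describe macrophage polarization, *Cd86*, a costimulatory ligand of CD28, was higher in BUP. It was detected in 83 of 97 UT and 41 of 43 BUP cells, from 0 to 31.7 P10k (median 3.93) and from 0 to 28.6 P10k (median 5.37), and at 450 and 702 CPM (0.64, 0.42 to 0.86). In interferon-low cells *Cd86* differed by 0.09. *Tnf* was at 701 and 598 CPM (-0.23, -0.44 to -0.02). *Nos2* was at 104 and 67.7 CPM (-0.62, -1.27 to -0.01), with 93.3% of its BUP UMIs in 5 cells. It stood at 0.29 in thinned counts, with interferon-led cells chosen anew. *Arg1* was at 1279 and 945 CPM (-0.44, -0.60 to -0.27) and *Mrc1*, the mannose receptor CD206, at 270 and 221 CPM (-0.29, -0.64 to 0.06). Of 15 measured inflammatory macrophage genes, 4 were at least 1.5-fold higher in BUP, *Cxcl1*, *Il1a*, *Inhba* (1.10, 0.61 to 1.59) and *Ptgs2* (0.61, 0.41 to 0.82), and 0 were lower. Over all 3804 genes, 194 were higher by that fold (5.1%) and 286 lower (7.52%). Summed, the inflammatory list stood at 21258 (UT) and 25270 CPM (BUP) in interferon-led cells. It was higher in BUP in interferon-low cells too, at 18336 and 23374 CPM, and in C1q-high macrophages, at 5636 and 8425 CPM. A higher level in BUP was thus not particular to interferon-led cells. Of 17 measured classical monocyte genes, *Fn1* alone passed the fold, and *Ly6c2* differed by -0.51 (-0.74 to -0.28). *Ly6c2* differed by -0.99 in interferon-low cells.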

How the data were processed

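Deposited counts were UMIs per gene and barcode that the authors made with Cell Ranger 8.0.1 against GRCm39 (2 libraries, 33696 genes, 0 columns unused), with the version from the submitters' notes, while the methods name another release. Seurat 5.0.1 is named in the submitters' notes, and its output was not used here. All values were computed in Python (version 3.11.15), with intervals from scipy 1.17.1, tables handled by pandas 2.3.3 over numpy 2.4.6, and plots drawn by matplotlib 3.10.9. Barcodes with 20% or more mitochondrial UMIs were removed (393 UT and 445 BUP). The cells and gene lists were chosen with earlier results of these data known.

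UMIs were summed over cells, per 1000000 UMIs (CPM). Genes needed 50 UMIs over both groups compared, and lists were counted past 1.5-fold (BUP over UT) or past 2-fold in both libraries (interferon-led over interferon-low). Named genes were the 10 highest and 10 lowest between BUP and UT with at least 200 UMIs and 100 CPM in 1 library, the 15 highest and 15 lowest of the smaller ratio between interferon-led and interferon-low cells with at least 100 CPM in 1 group, and genes of the lists. With 1 library per condition no test was made. Interval code was tested on simulated data. Shares across cells of differing depth were also given after thinning to 2000 UMIs, in the cells chosen on full counts.

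Doublets were kept. Scrublet (scanpy 1.11.5) called 1 kept UT barcode and 155 kept BUP barcodes, of which 0 were interferon-led, 30 were BUP interferon-low and 17 BUP C1q-high cells, so its caller was not used, and the 6% of barcodes with the highest scores were removed as an alternative, among them 1 of 97 UT and 0 of 43 BUP interferon-led cells. Other alternatives were the thresholds on mitochondrial UMIs, interferon sum, C1q and depth, thinning, median scaling, a mean over cells, a 200 UMI minimum and a longer motif. Promoters came from a RefSeq table (GRCm38.p6) and gene identifiers from the deposited counts.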

Additional observations from a re-analysis of the deposited data

Results flagged for a closer look

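In 18 of 244 genes of the lists and named genes that were measured in both classes (7.38%), the summed level moved one way between UT and BUP in interferon-led cells and the other way in interferon-low cells, with counting intervals on opposite sides of 0. Over all 3789 genes measured in both classes 82 met the same criterion (2.16%). Some named genes were picked for a large ratio of BUP over UT in interferon-led cells, and of the 18 only *Hcar2* was. The others came from the lists. Counting intervals narrow with more UMIs, and the part of UMI number in these shares was not tested. The difference between the classes was not tested, since each condition was 1 library. All values are log2 ratios of BUP over UT, first in interferon-led and then in interferon-low cells. Among interferon-inducible genes they were *Cxcl11* (0.68 and -1.13), *Gbp3* (0.64 and -0.66) and *Gbp5* (0.45 and -0.50). Without the cell richest in it in each library, *Cxcl11* stood at 0.04 in interferon-led cells. Among chemokines and receptors of monocyte traffic they were *Ccl2* (0.20 and -0.14), *Ccl3* (-0.54 and 0.42), *Ccl5* (0.62 and -0.22), *Ccl9* (-0.46 and 0.11) and *Ccr2* (0.31 and -0.21). The inflammatory cytokine *Tnf* stood at -0.23 and 0.21, and *Il1rn*, the antagonist of the IL-1 receptor, at -0.50 and 0.24. Myeloid genes were *Cebpb* (-0.20 and 0.05), *Itgam* (0.28 and -0.07), *Plac8* (0.20 and -0.25), *Hcar2* (-1.01 and 0.16, but 0.073 in interferon-led cells after thinning) and the neutrophil collagenase gene *Mmp8* (0.78 and -0.75). *Calr*, a chaperone of the endoplasmic reticulum, stood at -0.41 and 0.10, and *Cd63*, a tetraspanin of late endosomes, at -0.73 and 0.09. *Gzma* (3.65 and -1.04) rested on 1 BUP cell with 98.0% of its UMIs.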

How the results depend on the processing

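With 1 library per condition, no replicate could be left out. No paired analysis was possible because each condition was 1 pooled library. Of 73 summary values under alternatives, 51 stayed within their counting interval or within 1.5 times the count. An interferon sum of 20 P10k or more left 0.824% of kept UT and 0.354% of kept BUP barcodes (3.66% and 2.87% of the gate), and 5 P10k or more gave 2.18% and 0.930% (9.68% and 7.53% of the gate), as a moved threshold must. For thinning to 2000 UMIs, shallower barcodes were left out and the rule was applied to the thinned counts. The interferon-led cells were thus not the same set as in the full counts. With fewer UMIs and 679 and 2881 genes to measure, thinning gave 0.376% of kept BUP barcodes and 8.06% of the UT gate. It gave 58 genes higher and 77 lower in BUP, and 56 higher and 32 lower in interferon-led cells. In thinned counts the log2 ratio of BUP over UT turned to 0.073 for *Hcar2*, -1.62 for *Hba-a1*, -1.46 for *Hba-a2*, -2.52 for *Hbb-bs* and 0.29 for *Nos2*, and interferon-led over interferon-low to 0.87 for *Gzmf*, and the cause was not tested. A mean over cells gave 319 genes higher in BUP and 293 lower in interferon-led cells, and removal of the highest doublet scores 102 lower, and the cause was not tested. A minimum of 200 UMIs, with 1084 and 5372 genes measured, gave 30 higher and 35 lower in BUP and 119 higher and 42 lower in interferon-led cells. The core followed by CT was in 10.6% of windows of higher genes and 0.271% of all. Added after seeing the data, removal of 5 cells with hemoglobin or *Gzma* RNA turned *Hbb-bs* to -0.079. Of 200 higher genes, 190 remained at 20 P10k, 168 at 5 P10k, 188 without high doublet scores and 47 after thinning. Named genes, with some list genes for BUP over UT, kept their sign in 446 of 456 values for BUP over UT. For interferon-led over interferon-low cells they did in 327 of 330. Of these values 66 and 13 left the range allowed around the main value, and 6 and 1 reversed a ratio that had passed the fold. Most alternatives reused largely the same cells. With 97 and 43 interferon-led cells, the summed levels of *Cxcl9*, *Cxcl11*, *Nos2* and *Ly6a* rested on few cells.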
